A study of Mus musculus with 9 samples.

Results

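A/J and BALB/c are inbred mouse strains that are both albino, and their whole eyes are compared here across every gene of the deposited tables. The rule took the 3 A/J and the 3 BALB/c libraries, 6 of the 9 libraries of the series, and left aside the pigmented strain C57BL/6J. All mice were wild type females of 4 weeks, and each library was made from RNA pooled over 5 mice, reverse transcribed from poly(A) RNA with random primers. The series was designed around strains whose retinas degenerate at different rates. No substrain of BALB/c is named in the labels, nor whether replicate libraries used different mice, so p-values reflect how far libraries of a strain differ, possibly for technical reasons alone. Of 13089 genes listed, 12693 were tested. Defining markers of the labelled tissue were present: the rod transducin Gnat1 was at 3313, 3047 and 3032 RPKM in A/J against 3584, 3821 and 3811 RPKM in BALB/c, the lens protein Cryaa at 32009 RPKM or more in every library, the cornea keratin Krt12 at 2227 RPKM or more, and the pigment epithelium isomerase Rpe65 at 101 RPKM or more.

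The coat and eye colour of both strains comes from the same loss of tyrosinase activity, the first enzyme of melanin synthesis, so the comparison holds albinism constant. A/J and BALB/c differ at many other loci. Background known for these strains includes different haplotypes of the major histocompatibility complex (MHC), a transposon insertion in the muscle membrane repair gene Dysf in A/J, a copy number gain around the detoxifying enzyme gene Glo1 in A/J, and an insertion in the transcriptional repressor gene Zhx2 in the BALB/cJ substrain. The whole eye mixes lens, whose fibre cells are packed with crystallins, with cornea, retina, pigment epithelium, ciliary body and attached muscle and nerve. In such bulk samples, fewer cells of a type and less RNA per cell cannot be told apart.

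Levels are in RPKM, reads scaled by transcript length and by the mapped reads of the library. Library values are given as deposited. Tests and statements that the strains overlap or do not overlap used values divided by a size factor for each library. A log2 change is A/J minus BALB/c on the log2(scaled RPKM + 0.5) scale, is followed by its standard error (SE), and is 1 for a 2-fold difference; the added 0.5 shrinks changes of low genes. Means are given ± SD over 3 libraries. A gene is said to be called, or to have risen or fallen, at a limma p-value under 0.05 after Benjamini-Hochberg adjustment over all 12693 genes. The genes named were chosen by a rule given with the processing, except some named after their values were seen: Rps21, Gapdh, Ndufa3, Rpe65, Crygn, Cryge, Krt13, Lypd2, Krt14, Myl2, Tnnt1, Cox6a2, Mbp, Oxt, Sst, Dhx58, Ifit1, H2-Q2, H2-T10, Mt1, Gstp2, Gstm2, Gpx4, Mgst3, Dbp, Per1, Arntl, Arbp, Zhx3 and the genes lying side by side.

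The A/J libraries spread more than the BALB/c libraries. Over genes, the median SD within a strain was 0.26 (log2) in A/J and 0.10 in BALB/c. A/J 1 and A/J 2 stood apart from A/J 3: Spearman correlations across genes were 0.990 between A/J 1 and A/J 2, 0.937 and 0.912 between these and A/J 3, and 0.969 to 0.974 between A/J 3 and the BALB/c libraries. The deviation of a gene from its mean over the 6 libraries went with the GC content of its transcript, with Spearman correlations of -0.66 in A/J 1, -0.74 in A/J 2, 0.53 in A/J 3 and 0.30 to 0.68 in BALB/c. Several results are therefore also given without A/J 1 and A/J 2, which leaves A/J 3 alone and assumes that it would vary as the BALB/c libraries do. For some lists, results with the trend on GC content removed are given too. The part of GC content in the results below was otherwise not tested.

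**Figure D1:**
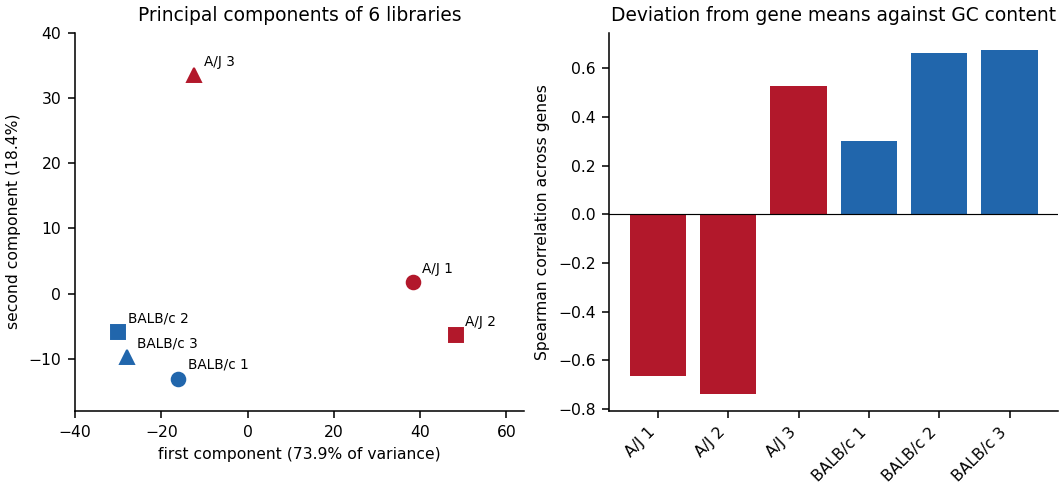
The left panel places the 6 libraries on the first and second principal components of log2 levels over 12693 genes, and the right panel gives, for each library, the Spearman correlation across genes between deviation from the gene mean and GC content. A/J 1 and A/J 2 sit far from the other libraries on the first component and are the libraries with negative correlations (-0.66 and -0.74).

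Of 12693 genes, 427 were called, which is 3.36% of those tested. Counts of called members in the gene lists below are to be read against this share, at which a short list can hold no call or a few. BALB/c was higher for 336 genes (2.65%) and A/J for 91 genes (0.717%). The libraries of the strains did not overlap for 3720 genes (29.3%), among them all 427 called genes. Before adjustment, 3123 genes were under 0.05. The log2 change was at least 1 in size for 45 genes higher in A/J and 192 genes higher in BALB/c. This split depended on the scaling. With values scaled to the same sum, the median of all genes moved to 0.21 and 2562 genes were called higher in A/J against 328 in BALB/c, and after removal of the GC trend the calls were 298 against 488. List medians nearer to 0 than that shift turned positive with values scaled to the same sum, such as 0.11 for mitochondrial ribosomal proteins, 0.10 for neuropeptides, 0.07 for antioxidant genes, 0.05 for melanin genes and 0.02 for MHC genes, and 5 melanin genes were then called, all higher in A/J.

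The number of calls also depended on A/J 3. Without A/J 3 there were 8334 calls, and without A/J 1 and A/J 2 there were 1609 (394 higher in A/J and 1215 in BALB/c). Leaving out A/J 1 gave 164 calls, A/J 2 gave 274, and BALB/c 1, 2 and 3 gave 154, 117 and 114. Of the 427 called genes, 266 fell short without A/J 1, 168 without A/J 2, 274, 310 and 313 without BALB/c 1, 2 and 3, and 0 without A/J 3. All 6 omissions kept 104 of the called genes, 16 higher in A/J and 88 higher in BALB/c, whereas 158 called genes kept their call only in the omission of A/J 3. With the GC trend removed, 337 of the 427 were still called. The genes below are described as kept in all 6 omissions where this was so, and the other called genes named fell short in at least 1 of them.

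**Figure D2:**
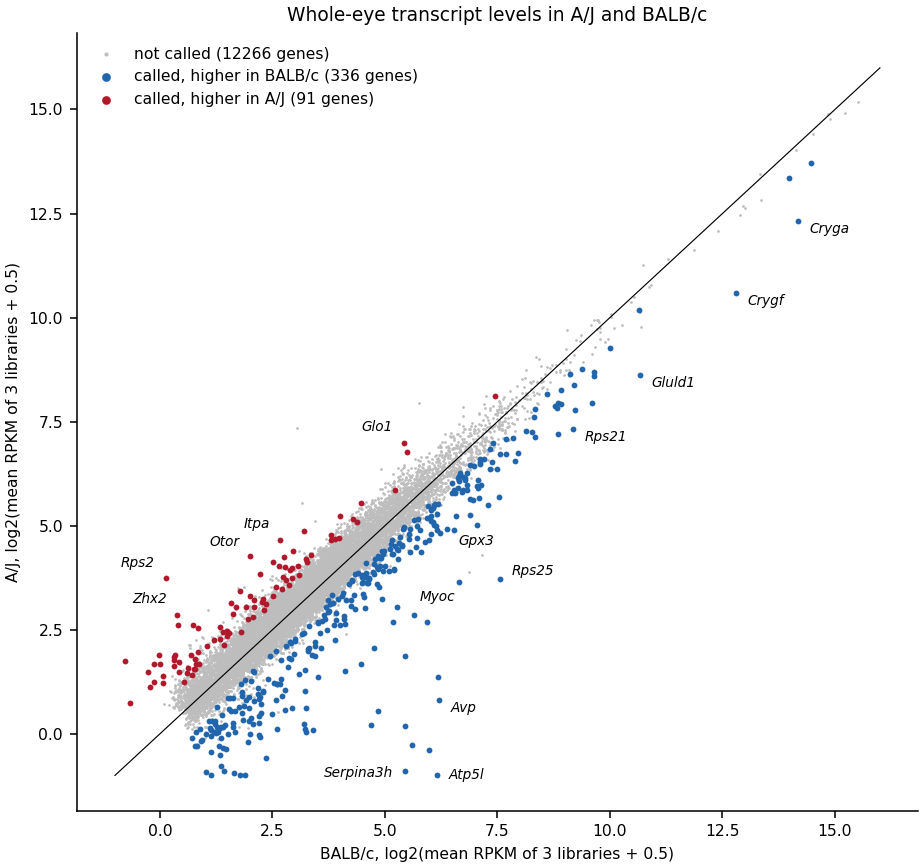
Each point is 1 gene, with the log2 of the mean deposited RPKM + 0.5 of 3 BALB/c libraries on the horizontal axis and of 3 A/J libraries on the vertical axis, called genes coloured and the line marking equal levels. The 336 genes called higher in BALB/c reach farther from the line than the 91 called higher in A/J, down to Serpina3h and to Atp5l, which is listed at 0 in A/J.

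Among genes higher in A/J, the transcriptional repressor gene Zhx2 stood at 6.89, 5.45 and 7.8 RPKM in A/J against 0.73, 0.85 and 0.8 RPKM in BALB/c. The log2 change was 2.42 ± 0.15 (adjusted p = 0.000524). Itpa, which encodes the enzyme that clears inosine triphosphate from the nucleotide pool, was at 24.8, 27.2 and 22.6 RPKM in A/J against 5.86, 5.94 and 5.62 RPKM in BALB/c (log2 change 1.94 ± 0.12, adjusted p = 0.000513). Every A/J library lay above every BALB/c library for Itpa. For Zhx2 the filter fixed this, since every BALB/c value was under 1 RPKM. Both genes were kept in all 6 omissions, while 23.3% of the 31-base words of the transcript of Itpa also occur in other genes. Rab37, a small GTPase of secretory vesicles, was at 5.31, 5.1 and 6.54 RPKM in A/J against 1.21, 0.92 and 1.33 RPKM in BALB/c (log2 change 1.84 ± 0.15, adjusted p = 0.00151). It was kept in all 6 omissions.

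Otor, Pglyrp4 and Krt16 were also among the 10 largest rises. Otor, otoraplin, a secreted protein first described in cartilage and the inner ear, was at 20.4, 24.4 and 12 RPKM in A/J against 4.59, 2.83 and 3.03 RPKM in BALB/c (log2 change 2.20 ± 0.29, adjusted p = 0.0107), with A/J 3 the lowest of the A/J libraries. It fell short when A/J 1, BALB/c 2 or BALB/c 3 was left out (adjusted p up to 0.0832). Pglyrp4, a peptidoglycan recognition protein, was at 2.57, 3.88 and 2.13 RPKM in A/J against 0.22, 0 and 0.04 RPKM in BALB/c (adjusted p = 0.00292) and is listed at 0 in BALB/c 2. Krt16, a keratin of stressed epithelium, was at 3.65, 2.69 and 3.28 RPKM in A/J against 0.51, 0.31 and 0.63 RPKM in BALB/c (log2 change 1.88 ± 0.18, adjusted p = 0.00261), and 51.9% of its words occur in another gene. Both were kept in all 6 omissions.

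Edn2, an endothelin that photoreceptors release under stress, was at 4.49, 4.16 and 8.31 RPKM in A/J against 0.89, 0.84 and 0.71 RPKM in BALB/c (log2 change 2.12 ± 0.24, adjusted p = 0.00645). A/J 3 was the highest library, and only the omission of BALB/c 3 ended the call (adjusted p = 0.0528). Spink5, a protease inhibitor of surface epithelium, was at 2.72 ± 0.913 RPKM in A/J and 0.41 ± 0.0854 RPKM in BALB/c (log2 change 1.75 ± 0.23, adjusted p = 0.0107) and fell short when A/J 1 or any BALB/c library was left out (adjusted p up to 0.0691). Ahcy, which hydrolyses S-adenosylhomocysteine, was at 2.29 ± 0.215 RPKM in A/J and 0.33 ± 0.0819 RPKM in BALB/c (log2 change 1.71 ± 0.14, adjusted p = 0.00152), and Rps2, a protein of the small ribosomal subunit, at 8.73, 7.44 and 22.4 RPKM in A/J against 0.48, 0.4 and 0.9 RPKM in BALB/c (log2 change 3.42 ± 0.40, adjusted p = 0.00666). Both were kept in all 6 omissions, but 71.4% of the 31-base words of Ahcy and 43.4% of those of Rps2 also occur in other genes, so that reads could be split between copies.

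The largest excesses in BALB/c were larger than any in A/J. Serpina3h, a member of a cluster of closely related protease inhibitors, was at 0.06, 0.03 and 0.03 RPKM in A/J against 41.1, 44.5 and 43.4 RPKM in BALB/c (log2 change -6.37 ± 0.11, adjusted p = 1.34e-06). It was close to 0 in all A/J libraries and kept in all 6 omissions, and 39.8% of its 31-base words occur in other genes. Avp, the precursor of the hormone vasopressin, was at 0.89, 0.9 and 1.95 RPKM in A/J against 63.6, 86.8 and 69.1 RPKM in BALB/c (log2 change -5.50 ± 0.25, adjusted p = 0.00026). The lowest BALB/c library was far above the highest A/J library, and the call was kept in all 6 omissions. Of the words of Avp, 17.7% occur in other genes. Myoc, myocilin, a secreted protein of the aqueous outflow tissue whose human mutations cause glaucoma, was at 11.1, 13.6 and 11.7 RPKM in A/J against 119, 97.3 and 84.3 RPKM in BALB/c (log2 change -3.05 ± 0.16, adjusted p = 0.000335). It too was kept in all 6 omissions, and it shares no sequence words with other genes.

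Spc25, a component of the kinetochore, was at 4.03, 4.56 and 0.85 RPKM in A/J against 49.8, 37.9 and 40.7 RPKM in BALB/c (log2 change -3.83 ± 0.49, adjusted p = 0.00919). A/J 3 was well below A/J 1 and A/J 2 and all were below BALB/c, and it fell short when any 1 BALB/c library was left out (adjusted p up to 0.0667). Atp5l, a subunit of the mitochondrial ATP synthase, is listed at 0 in all A/J libraries and was at 53.4, 83.1 and 75.5 RPKM in BALB/c (adjusted p = 9.34e-06). Whether the 0 is an absence of transcript or a failed estimate was not tested, and no fold is given. Of the words of Atp5l, 12.9% occur in other genes. The remaining genes of the 10 largest falls all encode ribosomal proteins, among them Rps3a, Rpl36, Rpl9 and Rps25.

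**Figure D3:**
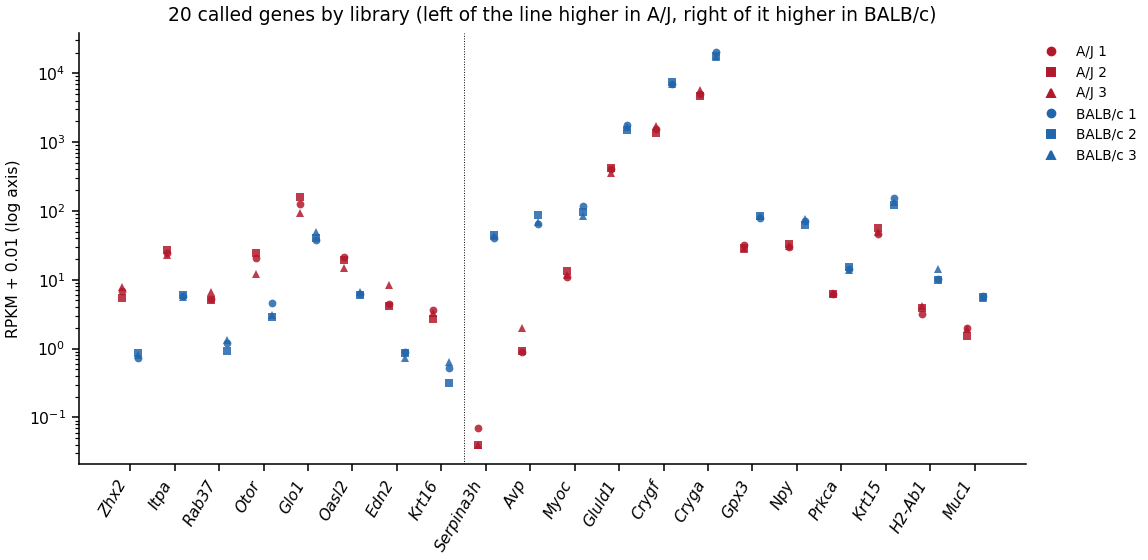
Deposited values of 20 called genes are plotted by library as RPKM + 0.01 on a log axis, A/J in red and BALB/c in blue, with a marker for each replicate number. The strains lie apart for each gene, as for all 427 called genes, from Zhx2, 5.45 RPKM or more in A/J and at most 0.85 RPKM in BALB/c, to Serpina3h, at most 0.06 RPKM in A/J. Libraries of A/J spread for some genes, such as Otor, from 12 to 24.4 RPKM.

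Ribosomal protein genes were chosen as a group after their values were seen. Of 80 tested genes for proteins of the cytoplasmic ribosome and their close paralogs, 38 fell in A/J and 2 rose (Rps2 and Arbp), with a median log2 change of -0.92 against -0.01 over all genes and 3.36% called over all genes. Rps25 was at 9.7, 11.1 and 17.4 RPKM in A/J against 180.4, 185 and 202 RPKM in BALB/c (log2 change -3.95 ± 0.20, adjusted p = 0.000335), and Rps3a at 0.22, 0.2 and 0.38 RPKM in A/J against 73.1, 54.1 and 61.8 RPKM in BALB/c (log2 change -6.41 ± 0.16, adjusted p = 7.38e-06). Rps21 was at 141, 133 and 201 RPKM in A/J against 512, 593 and 629 RPKM in BALB/c (log2 change -1.95 ± 0.17, adjusted p = 0.00222). The A/J libraries, A/J 3 included, lay below all BALB/c libraries in each case, and all were kept in all 6 omissions. Summed RPKM over the group was 6326, 6440.3 and 5496 in A/J and 9777, 9961 and 10606 in BALB/c.

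Ribosomal protein genes have many processed copies in the genome, and 47 of the 80 share at least 20% of their 31-base words with another gene, among them Rps3a (76.9%) and Rpl36 (94.1%). Among all genes tested this holds for 3.51%, but for 15.4% of those called higher in A/J and 29.2% of those called higher in BALB/c. With such genes left out, 243 genes were called (55 higher in A/J and 188 in BALB/c), and the ribosomal group had 13 falls and no rise among the 33 members left, with a median of -0.68. Members left can still share words below the 20% level, such as Rpl9 (19.9%), Rps25 (16.7%) and Rpl35a (7.61%), so they are not free of copies. The housekeeping enzyme gene Gapdh, named after its values were seen, was at 0.26, 0.42 and 0.91 RPKM in A/J against 9.27, 8.24 and 9.37 RPKM in BALB/c (log2 change -3.30 ± 0.22, adjusted p = 0.00084), and 27.2% of its words are shared. How the deposited values treat reads that map to several copies is not given in the sources used here, and its part in these differences was not tested.

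Genes called higher in BALB/c were short and rich in GC. Their median transcript length was 1240 bases, against 2613 bases for genes called higher in A/J and 3152 bases for all genes tested, and 39.6% of them were under 1000 bases against 4.80% of all genes tested. Their median GC content was 53.7%, against 49.5% for genes called higher in A/J and 50.5% for all genes tested. Across 12455 genes of the same libraries, the log2 change had a Spearman correlation of -0.64 with GC content and 0.12 with transcript length. Subunits of the respiratory chain and ATP synthase, also chosen after their values were seen and with a median length of 863 bases, had 20 falls in A/J and no rise among 75 tested (median -0.42). Ndufa3, of complex I, was at 63.2, 58 and 58.5 RPKM in A/J against 131, 129.7 and 142 RPKM in BALB/c (log2 change -1.22 ± 0.10, adjusted p = 0.00165). Without any overlap between strains and with no shared words, it was kept in all 6 omissions. Mitochondrial ribosomal proteins had 7 falls and no rise among 73 (median -0.13). When the trend on transcript length was removed from each library, the falls were 31 for cytoplasmic ribosomal proteins (with 3 rises, median -0.65), 8 for the respiratory chain (median -0.09) and 1 for mitochondrial ribosomal proteins (median 0.01). With the GC trend removed they were 47 (with 2 rises, median -0.98), 22 (median -0.24) and 11 (median -0.12).

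In the retina, rod phototransduction genes, which turn light into a voltage change, had 2 falls in A/J and no rise among 20 tested (median -0.21). Pde6g, the inhibitory subunit of the rod phosphodiesterase, was at 1177, 1158 and 1159 RPKM in A/J against 1613, 1520.5 and 1645 RPKM in BALB/c (log2 change -0.52 ± 0.09, adjusted p = 0.0254). Guca1a, an activator of guanylate cyclase, was at 371, 432 and 494 RPKM in A/J against 679, 629.9 and 703 RPKM in BALB/c (log2 change -0.71 ± 0.12, adjusted p = 0.0258). The strains did not overlap for either, but both kept their call only in the omission of A/J 3 (adjusted p up to 0.203 and 0.188 otherwise), and with quantile normalization the log2 change of Pde6g was 0.05 and the rod list turned to 2 rises and no fall (median 0.07). With values scaled to the same sum it had 2 falls and 1 rise (median 0.02). Among the abundant rod genes, Gnat1 and arrestin Sag were not called, with log2 changes of -0.32 (adjusted p = 0.131) and 0.45 (adjusted p = 0.141).

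Cone phototransduction had 1 rise in A/J and no fall among 14 tested (median -0.02). This was Pde6c, which hydrolyses cyclic GMP in cones, at 4.47, 3.74 and 4.89 RPKM in A/J against 2.18, 1.53 and 2.37 RPKM in BALB/c (log2 change 0.90 ± 0.17, adjusted p = 0.0408). The strains did not overlap, and the call was kept only without A/J 3 (adjusted p up to 0.178 otherwise). The short-wave cone pigment Opn1sw, at 119 ± 25 RPKM in A/J and 112 ± 2.99 RPKM in BALB/c, overlapped between strains (log2 change -0.00 (adjusted p = 0.992)). Among 26 genes of photoreceptor structure and transcription none was called. Its most abundant members, the disc rim proteins Rom1 and Prph2 and the trafficking protein Unc119, had log2 changes of -0.56 (adjusted p = 0.13), -0.57 (adjusted p = 0.137) and -0.39 (adjusted p = 0.197).

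Prkca, the protein kinase that marks rod bipolar cells, was at 6.14, 6.11 and 6.33 RPKM in A/J against 14.5, 15.2 and 14 RPKM in BALB/c (log2 change -1.23 ± 0.11, adjusted p = 0.00191). A/J values were tight and all below BALB/c, and the call was kept in all 6 omissions. It was the only called gene of 14 tested bipolar genes (median 0.13), and Gng13, a G protein subunit of ON bipolar cells, had a log2 change of -0.57 (adjusted p = 0.05). Other bipolar genes had values on the A/J side, such as Otx2, a transcription factor, with 0.29 (adjusted p = 0.206). The difference of Prkca from the rest of the bipolar list was not tested.

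Of 25 tested genes of amacrine, horizontal and ganglion cells 1 rose in A/J, the GABA synthesizing enzyme gene Gad2, at 5.74, 7.45 and 5.57 RPKM in A/J against 3.52, 3.23 and 3.31 RPKM in BALB/c (log2 change 0.74 ± 0.15, adjusted p = 0.0429). It kept its call only without A/J 3 (adjusted p up to 0.247 otherwise). Glial and gliosis genes had 2 rises and no fall among 26 tested (median 0.10), Edn2 and Serpina3n. Serpina3n, a protease inhibitor of reactive astrocytes, was at 20.1, 19.8 and 14.1 RPKM in A/J against 8.54, 8.99 and 9.6 RPKM in BALB/c (log2 change 0.88 ± 0.17, adjusted p = 0.0436), again kept only without A/J 3 (adjusted p up to 0.203 otherwise) and with 21.6% of its words shared. Apoe and Clu, abundant lipid carriers of glia, were at 857 ± 56.4 RPKM in A/J and 872 ± 56.7 RPKM in BALB/c, and 989.7 ± 94.2 RPKM in A/J and 844 ± 44.5 RPKM in BALB/c respectively, and neither was called.

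Pigment epithelium and melanin genes held 1 called gene between them. None of 25 pigment epithelium and visual cycle genes was called (median 0.07). Rpe65 was at 229, 249.9 and 117 RPKM in A/J against 102, 101 and 114 RPKM in BALB/c (log2 change 0.76 ± 0.29, adjusted p = 0.177). A/J 3 lay just above the BALB/c values as deposited and among them after division by the size factors. Of 29 melanin and melanosome genes 1 fell in A/J (3.45%, against 3.36% called over all genes). This was Gpnmb, a melanosome membrane protein, at 73.7, 65.7 and 73 RPKM in A/J against 96.5, 99.2 and 99.8 RPKM in BALB/c (log2 change -0.54 ± 0.10, adjusted p = 0.0379). Among the omissions it passed only without A/J 3, and it was not called with values as deposited or with quantile normalization. The tyrosinase gene Tyr was at 20.3, 20.9 and 15.4 RPKM in A/J against 23.9, 20.8 and 21.5 RPKM in BALB/c (log2 change -0.29 ± 0.15, adjusted p = 0.254), and the related enzyme genes Dct and Tyrp1 had log2 changes of -0.07 (adjusted p = 0.654) and 0.05 (adjusted p = 0.861). Without A/J 1 and A/J 2, the log2 change of Tyrp1 was -0.43 and the median of the melanin list was -0.22.

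Gamma crystallins led the lens genes that fell in A/J. Of 20 tested crystallin genes, whose products give the lens its transparency and refractive power, 5 fell and none rose (median -0.37), Cryga, Crygd, Cryge, Crygf and Crygn. Crygf was at 1528, 1356 and 1731 RPKM in A/J against 6992, 7433 and 6911 RPKM in BALB/c (log2 change -2.28 ± 0.11, adjusted p = 0.000294). Cryga was at 4933, 4673 and 5722 RPKM in A/J against 20280.2, 17970.5 and 17516 RPKM in BALB/c (log2 change -1.93 ± 0.11, adjusted p = 0.00035). For both, every A/J library was below every BALB/c library, and both were kept in all 6 omissions, but 47.2% of the words of Crygf and 14.6% of those of Cryga are shared with other genes. Crygd had a log2 change of -0.83 (adjusted p = 0.0134), Crygn -0.79 (adjusted p = 0.0147) and Cryge -0.70 (adjusted p = 0.0253), and these 3 fell short when A/J 1 or any BALB/c library was left out, Cryge also when A/J 2 was.

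The most abundant crystallins were not called. Cryaa, the alpha crystallin chaperone, was at 37979, 32009 and 40795 RPKM in A/J against 39150.3, 53088 and 47036 RPKM in BALB/c (log2 change -0.39 ± 0.15, adjusted p = 0.179), Crybb2 had a log2 change of -0.38 (adjusted p = 0.163), and Crygb, a gamma crystallin, was at 35422, 32994 and 23518 RPKM in A/J against 34439, 25981 and 28101 RPKM in BALB/c (log2 change -0.02 (adjusted p = 0.944)) and overlapped between strains. Of the 20, 5 share sequence words at the 20% level. Crystallins are short and rich in GC (median 842 bases and 55.7% GC). With the GC trend removed the list had 2 falls and 1 rise (median -0.09), where all genes gave 488 falls and 298 rises. With quantile normalization it had 2 falls and 2 rises (median 0.12), where all genes gave 297 falls and 122 rises. Without A/J 1 and A/J 2 its median was -0.33.

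Summed over the list, crystallins took 44.6%, 42.3% and 45.1% of all listed RPKM in A/J (44.0 ± 1.53, SD, n = 3) and 50.2%, 49.8% and 48.9% in BALB/c (49.6 ± 0.635, SD, n = 3). The difference was -5.64 percentage points with no overlap (exact permutation test over libraries, two-sided, p = 0.1, the smallest that 3 against 3 allows). Leaving out 1 library at a time gave differences of -6.20 to -4.77 points. Among other lens genes, 2 of 23 fell (median -0.13). Gluld1, lengsin, a glutamine synthetase relative of lens fibres, was at 410.4, 420.3 and 349.9 RPKM in A/J against 1746, 1487 and 1639 RPKM in BALB/c (log2 change -2.11 ± 0.12, adjusted p = 0.00035). It shares no words and was kept in all 6 omissions. Grifin, a lens galectin relative, was at 621 ± 11.6 RPKM in A/J and 1024 ± 35.2 RPKM in BALB/c (log2 change -0.78 ± 0.09, adjusted p = 0.00527), and fell short when BALB/c 2 or BALB/c 3 was left out (adjusted p up to 0.0659). Lim2, a lens fibre membrane protein, had a log2 change of -0.65 (adjusted p = 0.106).

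Called genes of surface epithelium went in both directions. Of 38 cornea and conjunctiva genes 4 fell and 2 rose in A/J (median -0.26). Values of 19 did not overlap between strains, 15 higher in BALB/c and 4 higher in A/J. Among all genes, 3720 (29.3%) did not overlap, 1678 higher in BALB/c and 2042 higher in A/J. Krt15, a keratin of limbal basal cells, was at 46.2, 56.3 and 48.6 RPKM in A/J against 156, 120.2 and 134 RPKM in BALB/c (log2 change -1.49 ± 0.14, adjusted p = 0.00226). Muc1, a membrane mucin of the tear film, was at 1.95, 1.5 and 1.92 RPKM in A/J against 5.76, 5.64 and 5.35 RPKM in BALB/c (log2 change -1.47 ± 0.13, adjusted p = 0.00214). Krt13, a keratin of conjunctiva, also fell (-1.13, adjusted p = 0.00305). These 3 genes were kept in all 6 omissions. Lypd2 fell by 1.03 on the log2 scale (adjusted p = 0.0337) and the basal keratin Krt14 rose by 0.58 (adjusted p = 0.0395), both called only with A/J 3 left out among the 6 omissions. The main cornea genes Krt12, Aldh3a1 and Krt5 were not called, with log2 changes of 0.05, -0.20 and -0.40. Without A/J 1 and A/J 2 the median of the list was -0.36, and with the GC trend removed it was -0.11.

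Of 32 genes of ciliary body, iris and outflow tissue 2 fell (Myoc and Calml3) and 2 rose (Otor and Col9a1), with a median of 0.02. Col9a1, a chain of the collagen of vitreous and ciliary epithelium, was at 18, 17.9 and 25.4 RPKM in A/J against 7.36, 7.01 and 7.5 RPKM in BALB/c (log2 change 1.35 ± 0.15, adjusted p = 0.00554). The strains did not overlap, but it fell short when BALB/c 2 or BALB/c 3 was left out (adjusted p up to 0.0517). Ptgds, prostaglandin D synthase, was at 1094, 896 and 635 RPKM in A/J against 1562, 1625 and 1734 RPKM in BALB/c (adjusted p = 0.0517) and missed the threshold. Calml3 was at 286 ± 0.249 RPKM in A/J and 388 ± 15.3 RPKM in BALB/c (log2 change -0.50 ± 0.09, adjusted p = 0.0349). Among 45 matrix genes, fibronectin Fn1 (0.86, adjusted p = 0.0114) and Col9a1 rose, and the membrane protease Mmp14 fell (-0.96, adjusted p = 0.00844).

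Genes of tissue attached to the eye were carried unevenly by the libraries. Of 35 skeletal muscle genes 4 rose (Tnni1, Actn3, Myl2 and Tnnt1) and 2 fell (Cox8b and Cox6a2), with a median of 0.28. The slow muscle troponin Tnni1 was at 14.8, 16.2 and 16.1 RPKM in A/J against 8.3, 7.42 and 7.94 RPKM in BALB/c (log2 change 0.89 ± 0.11, adjusted p = 0.00711), and the fast muscle actinin Actn3 at 11.5, 10.5 and 11.3 RPKM in A/J against 5.72, 4.73 and 6.11 RPKM in BALB/c (log2 change 0.89 ± 0.13, adjusted p = 0.0138). Cox8b, a muscle form of a cytochrome oxidase subunit, was at 29, 35.6 and 23 RPKM in A/J against 98.3, 88.3 and 88.6 RPKM in BALB/c (log2 change -1.72 ± 0.17, adjusted p = 0.00358) and was the only one of the 3 kept in all 6 omissions. Summed RPKM of the list was 3364, 4066 and 2805 in A/J and 3268, 2600 and 2641 in BALB/c, so A/J 3 lay within the BALB/c range. With A/J 3 as the only A/J library the median was 0.06, and with the GC trend removed it was 0.46.

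The 18 tested genes of myelin and optic nerve glia had the largest median of all lists, 0.86, with no rise and 1 fall. A/J 1 stood highest: Mbp, myelin basic protein, was at 433, 125 and 138 RPKM in A/J against 79.5, 144 and 96.5 RPKM in BALB/c. Summed RPKM was 1512 in A/J 1, 701 and 521 in A/J 2 and A/J 3, and 416 to 546 in BALB/c, and with A/J 3 alone the median was 0.32. The beta globin Hbb-b2 was at 80.2, 42.7 and 16.5 RPKM in A/J against 10.9, 8.88 and 5.34 RPKM in BALB/c (log2 change 2.13 ± 0.56, adjusted p = 0.106), highest in A/J 1 as well. Of 15 gland genes 1 rose, lactoferrin Ltf, at 2.88, 4.42 and 2.26 RPKM in A/J against 0.8, 0.65 and 0.86 RPKM in BALB/c (log2 change 1.45 ± 0.23, adjusted p = 0.0195), and of 25 vascular genes 1 fell, the endothelial junction gene Cldn5 (-0.78, adjusted p = 0.0222). The part of attached tissue in other results was not tested.

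Neuropeptide genes, which encode precursors of secreted signalling peptides, had 5 falls in A/J and no rise among 21 tested (median -0.10). Besides Avp these were Oxt, the oxytocin precursor beside it in the genome, at 0.54, 0.24 and 1.26 RPKM in A/J against 2.83, 4.81 and 3.4 RPKM in BALB/c (log2 change -1.94 ± 0.33, adjusted p = 0.0285), Npy, Cck and Sst. Npy, neuropeptide Y, was at 30, 33.1 and 31.1 RPKM in A/J against 71.8, 61.8 and 75.3 RPKM in BALB/c (log2 change -1.20 ± 0.12, adjusted p = 0.00261). It was kept in all 6 omissions, with all A/J values close together and below BALB/c. Cholecystokinin Cck was at 7.19 ± 1.26 RPKM in A/J and 13 ± 0.624 RPKM in BALB/c (log2 change -0.89 ± 0.14, adjusted p = 0.0202), and somatostatin Sst at 3.81 ± 1.21 RPKM in A/J and 10.3 ± 2.55 RPKM in BALB/c (log2 change -1.40 ± 0.26, adjusted p = 0.0355). Oxt, Cck and Sst fell short when A/J 1 or any BALB/c library was left out (adjusted p up to 0.151). Whether reads were shared between Avp and Oxt was not tested.

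Interferon response genes, which cells switch on against viruses and nucleic acids, had 3 rises and 1 fall among 55 tested, with a median of 0.36. Values of 37 did not overlap between strains, 29 of them higher in A/J, against 29.3% of all genes that did not overlap. Oasl2, an oligoadenylate synthetase relative, was at 21.5, 19.6 and 14.6 RPKM in A/J against 6.28, 5.99 and 6.54 RPKM in BALB/c (log2 change 1.41 ± 0.17, adjusted p = 0.00743), and it fell short when any 1 BALB/c library was left out (adjusted p up to 0.058). Ifi204 was at 2.85, 3.84 and 2.04 RPKM in A/J against 0.98, 0.55 and 0.67 RPKM in BALB/c (log2 change 1.40 ± 0.23, adjusted p = 0.0259), and the RNA sensor regulator Dhx58 at 4.97, 4.74 and 5.24 RPKM in A/J against 2.86, 2.96 and 3.13 RPKM in BALB/c (log2 change 0.60 ± 0.11, adjusted p = 0.0394). Ifitm2, a membrane protein that restricts virus entry, was at 49.2, 57.5 and 56.1 RPKM in A/J against 94.2, 88.9 and 96.7 RPKM in BALB/c (log2 change -0.84 ± 0.11, adjusted p = 0.00823). A/J 3 was the lowest A/J library for Oasl2 and Ifi204 and the highest for Dhx58. Ifi204 shares 34.6% of its words with other genes and Ifitm2 37.4%.

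The interferon list depended on which A/J libraries were used. Median levels of its members above the BALB/c mean were 0.57 in A/J 1, 0.47 in A/J 2 and 0.11 in A/J 3. With A/J 3 as the only A/J library the median was 0.08. Without A/J 3 there were 39 rises and 6 falls among the 55 (median 0.52), where all genes gave 4108 rises and 4226 falls. With the GC trend removed there were 13 rises and 4 falls (median 0.23), where all genes gave 298 rises and 488 falls. Ifit1, an RNA binding effector, showed this spread at 15.2, 13.8 and 8.21 RPKM in A/J against 5.51, 4.98 and 4.98 RPKM in BALB/c (log2 change 1.09 ± 0.24, adjusted p = 0.0643): A/J 3 lay between the other A/J libraries and BALB/c.

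MHC and antigen presentation genes had 3 falls and 2 rises in A/J among 28 tested (median -0.19). The class II genes H2-Ea and H2-Ab1, which present peptides to helper T cells, were at 0.82, 0.8 and 1.35 RPKM in A/J against 6.77, 6.09 and 6.32 RPKM in BALB/c (log2 change -2.28 ± 0.16, adjusted p = 0.00084) and at 3.13, 3.86 and 4.13 RPKM in A/J against 10.2, 10 and 14.2 RPKM in BALB/c (log2 change -1.56 ± 0.17, adjusted p = 0.0052). The neighbouring class II genes H2-Aa and H2-Eb1 were not called (-0.48 and -0.43). H2-T23, a class I gene that NK cells read, was at 8.26, 9.52 and 9.8 RPKM in A/J against 21.5, 23.9 and 22.1 RPKM in BALB/c (log2 change -1.31 ± 0.12, adjusted p = 0.00207), and the 3 falls were kept in all 6 omissions, with 25.8% of the words of H2-T23 shared. The class I genes H2-K1 and H2-D1 had log2 changes of 0.46 (adjusted p = 0.0692) and 0.38 (adjusted p = 0.114) with no overlap. H2-Q2 and H2-T10 rose (0.81 and 0.83), called only with A/J 3 left out among the 6 omissions. The strains carry different MHC haplotypes, and how sequence differences from the reference build affect these values was not tested.

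None of 19 complement genes and none of 27 microglia and macrophage genes was called (medians 0.16 and 0.11), where 3.36% of all genes were. Lists this short can hold no call at that share. Lgals3, galectin-3, the most abundant gene of the macrophage list, was at 76 ± 8.96 RPKM in A/J and 83.4 ± 2.84 RPKM in BALB/c and overlapped. Of 30 chemokine and cytokine genes 1 fell and 1 rose (6.67% called). Mif, a cytokine with many processed copies, was at 38.7, 44.9 and 50.6 RPKM in A/J against 140.2, 165 and 166 RPKM in BALB/c (log2 change -1.87 ± 0.13, adjusted p = 0.00084), kept in all 6 omissions, with 60.5% of its words shared. The chemokine receptor Cxcr4 was at 2.16, 2.2 and 2.18 RPKM in A/J against 1.24, 1.2 and 0.99 RPKM in BALB/c (log2 change 0.66 ± 0.13, adjusted p = 0.0388), called among the omissions only without A/J 3.

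Antioxidant and glutathione genes had 8 falls and 1 rise in A/J among 58 tested (median -0.15). Gpx3, a secreted glutathione peroxidase, was at 31.8, 29.1 and 28 RPKM in A/J against 79.2, 84.8 and 84.7 RPKM in BALB/c (log2 change -1.54 ± 0.11, adjusted p = 0.00084). Its 3 A/J values were alike and all below BALB/c. The metallothionein Mt2, which binds zinc and copper, was at 47.7, 45.1 and 56.1 RPKM in A/J against 99.9, 125 and 131 RPKM in BALB/c (log2 change -1.31 ± 0.15, adjusted p = 0.00527), and its relative Mt1 at 117, 99 and 104 RPKM in A/J against 197, 269 and 283 RPKM in BALB/c (log2 change -1.27 ± 0.16, adjusted p = 0.0099). Gpx3 and Mt2 were kept in all 6 omissions, and Mt1 in 4. Gstp1, a glutathione transferase, was at 48.5 ± 3.81 RPKM in A/J and 123 ± 22 RPKM in BALB/c (log2 change -1.38 ± 0.16, adjusted p = 0.00651), with 38.5% shared words. Gstp2, Gstm2, Gpx4 and Mgst3 fell as well, by between 0.72 and 1.87 on the log2 scale.

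The rise was Glo1, glyoxalase, which removes methylglyoxal, at 126, 162 and 93.6 RPKM in A/J against 38.1, 40.1 and 49 RPKM in BALB/c (log2 change 1.48 ± 0.22, adjusted p = 0.0154). It did not overlap between strains, although A/J 3 was the lowest of the A/J libraries, and it fell short when A/J 1 or any BALB/c library was left out (adjusted p up to 0.0944). Without A/J 1 and A/J 2 the median of the antioxidant list was -0.28. Of 32 heat shock genes 3 fell and none rose, although the median was 0.15: the chaperones Hspa8 at 18 ± 1.83 RPKM in A/J and 38.4 ± 4.03 RPKM in BALB/c (log2 change -1.13 ± 0.14, adjusted p = 0.00821), Hspb1 (-1.19, adjusted p = 0.0136) and Hspe1 (-0.72, adjusted p = 0.0205). All 3 share at least 20% of their words with other genes, and none was kept in all 6 omissions. Of 54 phagocytosis and lysosome genes 2 fell (3.70%, against 3.36% called over all genes), both subunits of the proton pump. Atp6v1f was at 68.2 ± 1.89 RPKM in A/J and 109.9 ± 4.13 RPKM in BALB/c (log2 change -0.75 ± 0.10, adjusted p = 0.00871). Atp6v0c was at 0, 0.25 and 1.43 RPKM in A/J against 5.89, 10.8 and 13.2 RPKM in BALB/c (adjusted p = 0.0146), with 11.9% of its words shared.

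Circadian clock genes set A/J 3 apart from the other A/J libraries. Among 23 tested, 1 fell, the clock transcription factor Npas2 at 1.18, 1.14 and 0.68 RPKM in A/J against 2.35, 2.52 and 2.35 RPKM in BALB/c (log2 change -1.02 ± 0.17, adjusted p = 0.0271), with a median of 0.02. Without A/J 1 and A/J 2 the median was 0.40. Dbp, an output gene of the clock, was at 35.7, 40.2 and 125 RPKM in A/J against 55.9, 58.7 and 70.8 RPKM in BALB/c (log2 change -0.19 ± 0.44, adjusted p = 0.779), the repressor gene Per1 at 4.26, 4.22 and 12.8 RPKM in A/J against 7.23, 8.88 and 9.22 RPKM in BALB/c, and the activator gene Arntl at 30.9, 31.3 and 15.4 RPKM in A/J against 19.4, 18.4 and 19.7 RPKM in BALB/c. A/J 3 was the highest library for Dbp and Per1 and the lowest for Arntl.

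Immediate early genes, which respond within minutes to stimulation, had 2 falls among 27 tested, with a median of -0.41. Dusp1, a phosphatase of the MAP kinases, was at 12, 11.5 and 13.3 RPKM in A/J against 17.1, 21.2 and 18 RPKM in BALB/c (log2 change -0.65 ± 0.13, adjusted p = 0.0446), and Trib1 at 16.8 ± 0.674 RPKM in A/J and 23.6 ± 1.38 RPKM in BALB/c (log2 change -0.54 ± 0.11, adjusted p = 0.0429). Both were called among the omissions only without A/J 3, and the median was -0.06 without A/J 1 and A/J 2 and -0.15 with the GC trend removed. Of 11 histone genes Hist1h4c fell and Hist2h3c2 rose, of 16 serpins Serpina3h fell and Serpina3n rose, and of 20 alcohol and aldehyde dehydrogenases the retinoic acid synthesizing enzyme gene Aldh1a3 fell, at 8.84 ± 0.237 RPKM in A/J and 12.7 ± 0.206 RPKM in BALB/c (log2 change -0.57 ± 0.11, adjusted p = 0.0374).

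**Figure D4:**
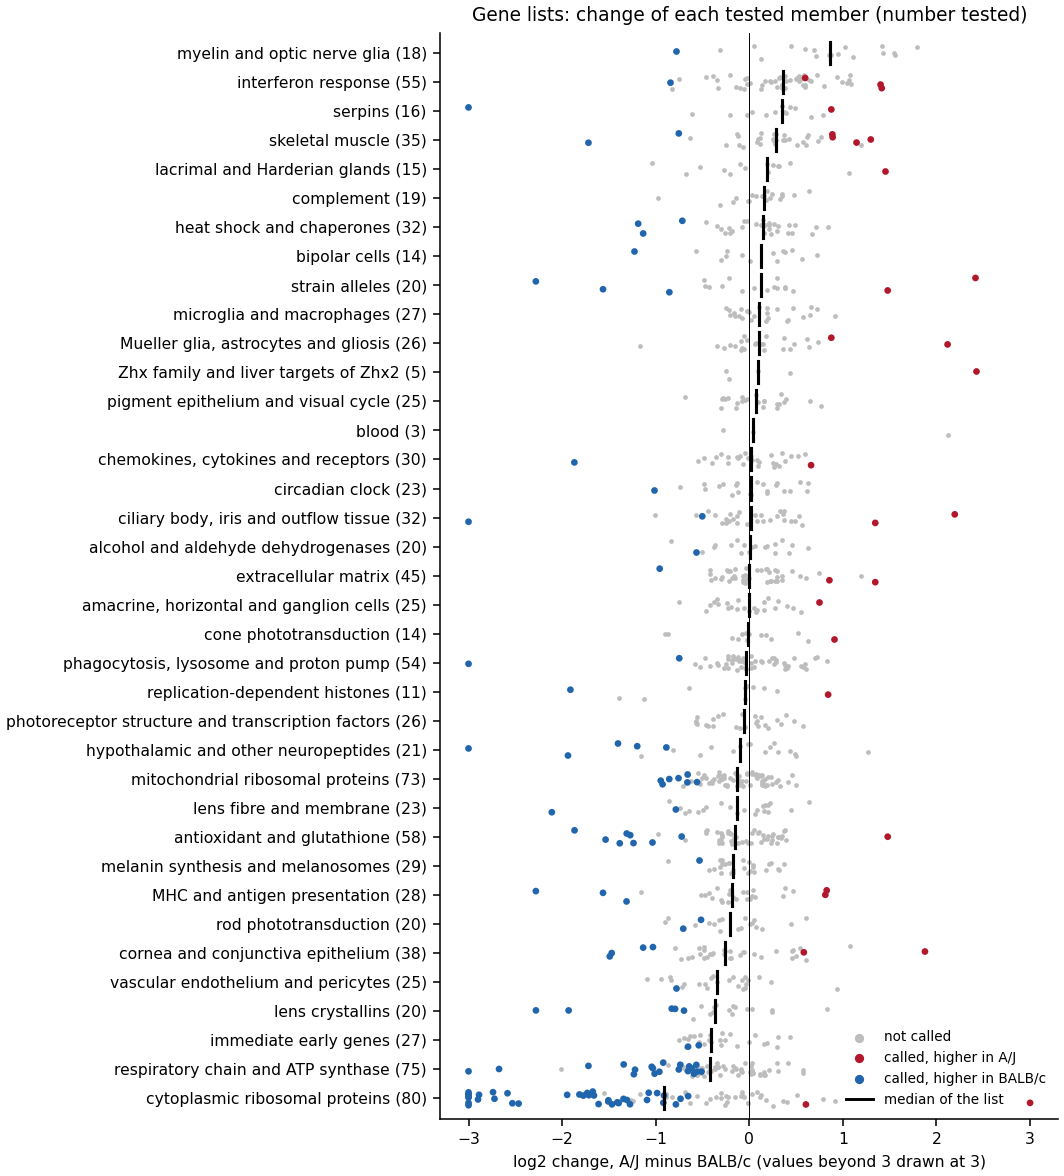
For each gene list, points give the log2 change of every tested member, A/J minus BALB/c, with values beyond 3 drawn at 3, called members coloured and the median as a bar. Lists run from cytoplasmic ribosomal proteins (median -0.92) to myelin and optic nerve glia (median 0.86), and most hold at most a few called members.

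**Figure D5:**
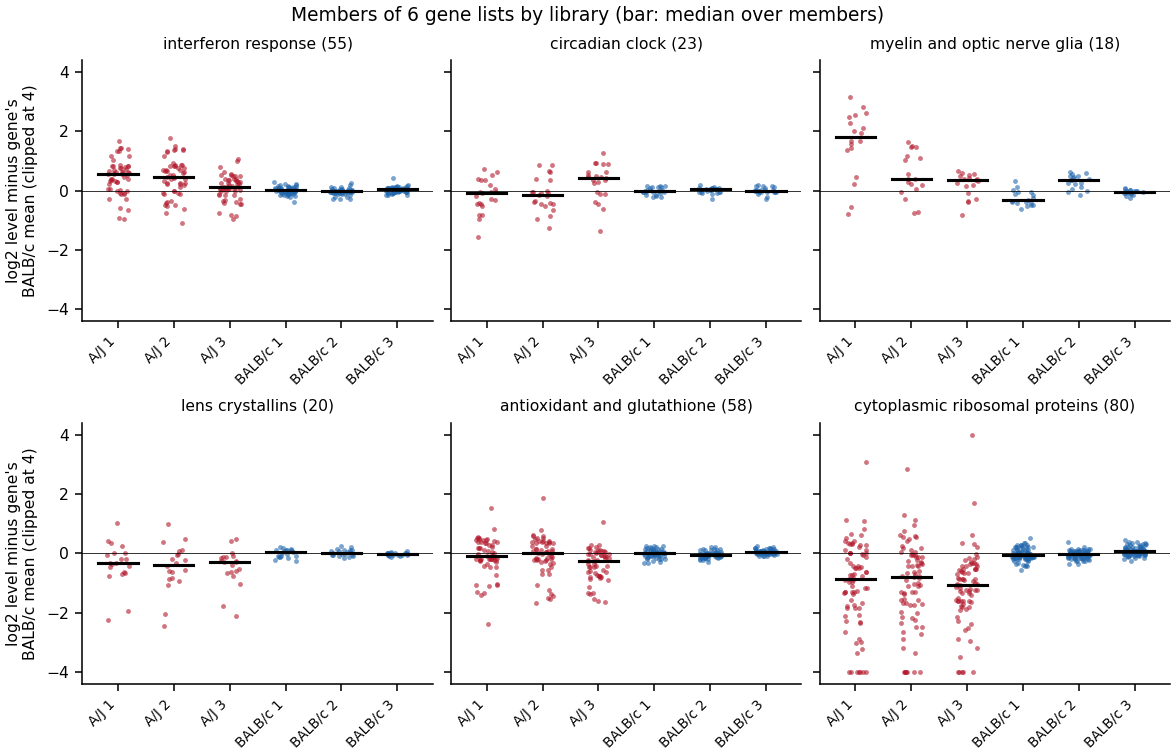
For 6 lists, points give each member's log2 level minus its mean over the BALB/c libraries, by library, clipped at 4, with the median over members as a bar; the BALB/c libraries lie near 0 by construction. Interferon genes are at 0.57 and 0.47 in A/J 1 and A/J 2 and at 0.11 in A/J 3, myelin genes stand out in A/J 1 (1.81), clock genes in A/J 3 (0.44), and ribosomal protein genes are low in all A/J libraries (-1.06 to -0.82).

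Genes with known alleles in these strains were taken as a list of 20 tested genes, of which 3 fell and 2 rose in A/J. Zhx2 (rise), Glo1 (rise), H2-Ea and H2-Ab1 (falls) are given above. Dysf, dysferlin, was at 0.32, 0.44 and 0.54 RPKM in A/J against 1.13, 1.23 and 1.05 RPKM in BALB/c (log2 change -0.85 ± 0.14, adjusted p = 0.0225). It was tested only because every BALB/c library reached 1 RPKM, so its lack of overlap was fixed by the filter. Among the omissions it passed only without A/J 3 (adjusted p up to 0.151). Btbd9, which neighbours Glo1, was at 10.7, 10.5 and 15.9 RPKM in A/J against 8.36, 9.63 and 8.55 RPKM in BALB/c (log2 change 0.38 ± 0.17, adjusted p = 0.224). The liver targets of Zhx2 and its relatives gave 5 tested genes, of which Zhx2 alone was called. Zhx3 had a log2 change of -0.24 (adjusted p = 0.391). Mitochondrial transhydrogenase Nnt had 0.38 (adjusted p = 0.161) and the aryl hydrocarbon receptor Ahr 0.27 (adjusted p = 0.219).

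Some called genes lay side by side. In the gene order of the reference annotation, 51 of 419 called genes with a position (12.2%) had a called gene as a nearest tested neighbour, and 6.53% of all tested genes had one. There were 26 adjacent called pairs, 19 of them changed in the same direction. The only run of 3 consisted of EG114600, Prb1 and Prpmp5, of a cluster of proline-rich salivary protein genes, all lower in A/J. Prb1 was at 0.55, 0.95 and 0.57 RPKM in A/J against 3.75, 3.32 and 5.16 RPKM in BALB/c (log2 change -1.99 ± 0.20, adjusted p = 0.00361), Prpmp5 at 1.55, 2.13 and 1.74 RPKM in A/J against 5.74, 4.72 and 7.19 RPKM in BALB/c (log2 change -1.51 ± 0.18, adjusted p = 0.00684). These genes, named for lying together, share 44.5% to 78.9% of their words with other genes, so that 1 difference may be counted more than once.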

How the data were processed

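The authors deposited 1 table per library with gene symbols and 1 value per gene. The submitters' processing notes name CASAVA 1.7, GenomeStudio and the build mm9. No unit stands in the headers. The deposited numbers are treated as RPKM because value times transcript length summed to 99.1% to 101% of the RPKM total in these 6 libraries (100% to 117% in the C57BL/6J libraries, used in 1 alternative only). Read depth is unknown: at most 29.5% of low values lay within 0.1 of a whole number of reads, so whole reads could not be derived and counting error is not given. Summed RPKM was 521202 to 599635 per library. The sources used here give neither counting rule nor gene models. The effect of strain sequence variants on mapping to mm9 was not tested.

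Size factors (median of ratios over the 6 libraries) scaled the values, and genes reaching 1 RPKM in at least 3 of them were tested (396 were not). limma 3.58.1 in R 4.3.3 fitted log2(scaled RPKM + 0.5) with strain as the only term, a trended prior and robust estimation. Tests were two-sided. The script was tested on simulated data. Transcript length, GC content, 31-base words shared with other genes and gene order came from GENCODE vM21 and RefSeq for GRCm38, matched by symbol (12837 genes, 98.1%); that build differs from mm9, so no coordinates are given.

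The members and gene lists were chosen with earlier results of these data known. Lists are described by counts and medians, with no test of a list. Genes named were the 10 largest called changes in each direction (log2 change of at least 1 in size, no overlap, at least 2 RPKM on average in the higher strain, clone and predicted names passed over: 5 higher in A/J and 21 higher in BALB/c); up to 3 called members per list; the most abundant members of eye lists and of lists with no call; and the list of strain alleles. Some genes that this rule names are not reported here. The alternatives covered scaling, the pseudocount, filters, all 9 libraries, limma settings, library weights, a replicate block, GC and length corrections, shared sequence and omission of each library. Omissions kept the 12693 genes of the full comparison.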

Additional observations from a re-analysis of the deposited data

How the results depend on the processing

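The 427 calls (91 higher in A/J, 336 in BALB/c) stayed within 1.5 times for values as deposited, quantile normalization, both pseudocounts, no filter, all 9 libraries, limma without trend and robust estimation, and the length correction. Calls numbered 2890 with values scaled to the same sum (2562 higher in A/J), 786 after GC correction (298 higher in A/J) and 1483 after GC and length correction (774 and 709). They numbered 243 without genes that share at least 20% of their words (55 and 188). A filter at 5 RPKM left 49 higher in A/J, and the length correction 200 higher in BALB/c. Library weights gave 9272 calls (4614 and 4658); they were estimated gene by gene because the default estimation did not converge. Without A/J 1 and A/J 2, 1609 were called (394 and 1215). The length corrections and this joint omission were chosen after seeing the data. Leaving out 1 library gave 114 to 8334 calls, 17 to 4108 of them higher in A/J and 95 to 4226 higher in BALB/c, the highest each time without A/J 3. Omissions first applied the filter anew, which gave 63 to 8267 calls; the full gene set was kept instead after these were seen. The causes were not tested.

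With the replicate number as a block, 309 genes were called (64 higher in A/J, 245 in BALB/c), and 480 with the GC correction as well (144 and 336). Deviations of same-numbered libraries correlated at 0.34, -0.53 and 0.24, and A/J 2 correlated best with BALB/c 1 (0.61). The labels do not say what same-numbered libraries share, and this was not tested. Signs turned for Pde6g (0.047) with quantile normalization, Opn1sw (0.23) and Crygb (0.26) with library weights, and Tyrp1 (-0.43) without A/J 1 and A/J 2. The crystallin share (-6.20 to -4.77 points in omissions) kept its direction in every alternative run. Depth is unknown and limits low genes by an unknown amount.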
